A study of Homo sapiens with 2 samples.

Results

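The clustered protocadherins are cadherin-like cell-surface proteins encoded by 3 neighbouring gene clusters, alpha, beta and gamma, on chromosome 5. The members described here were all protein-coding genes of GENCODE 44 on that chromosome whose symbols begin with PCDHA, PCDHB or PCDHG. There were 53 of them (15 alpha, 16 beta and 22 gamma) among 20033 protein-coding genes on chromosomes 1 to 22, X and Y. Chromatin accessibility at their transcription start sites (TSSs), along the array that holds them and in the 200 kb on either side was taken from ATAC-seq, an assay that marks open DNA by the adapters that the enzyme Tn5 leaves in it. The cells were 293T, an established line of human embryonic kidney origin with the large T antigen of SV40.

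Each condition was represented by 1 library of 50000 cells. The MGO library came from cells grown for 12 h with 0.5 mM methylglyoxal (MGO), a reactive by-product of sugar metabolism that glycates arginine and lysine residues of histones, and the control library from cells that received no MGO. For the control, the deposited labels name PBS in one place and unsupplemented fresh medium in another. The peak names of both libraries carry the number 2, so further libraries may have been made, and none was analysed here. With 1 library per condition no difference between the conditions has a replicate check, and no test between them was made. The control list held 36142 peaks and the MGO list 22884, with fold enrichment over background, −log10 p and −log10 q for each peak as called by the authors. Without read counts in these lists, the depth behind a peak is unknown. The weakest deposited peaks had a −log10 q of 1.01 in both lists, and all deposited peaks were used. The study's methods keep peaks from a −log10 q of 2 upward for downstream use. Such peaks numbered 23907 in control and 16093 in MGO, and the main counts are also given for them. All 7 genes fixed as 293T markers, the neurofilament genes NEFL, NEFM and INA, the intermediate filament genes VIM, KRT8 and KRT18, and the kidney factor PAX2, had a TSS peak in both lists. Among marker genes of other cell types, the glial factor OLIG2 had a TSS peak in both lists, the muscle factor MYOD1 had one in control, and 8 had none.

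Clustered protocadherins bind their own kind across cell contacts, and in neurons each cell switches on a small, largely random set of isoforms that gives it an identity distinct from its neighbours. In the alpha and gamma clusters every variable first exon has its own promoter and is spliced to constant exons shared by the whole cluster, whereas each beta gene is a single coding exon. Most of the variable promoters carry a short conserved sequence element and are brought to distant enhancers by CTCF and cohesin. The last genes of the alpha and gamma clusters, called C-type (PCDHAC1, PCDHAC2, PCDHGC3, PCDHGC4 and PCDHGC5), are regulated differently from the rest, and several of them lack the element. The grouping by C-type is used below as textbook background and was applied with the peak calls known.

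The promoter sequences show which starts share a word and which do not. The RefSeq promoter table for GRCh38 (250 bases before to 50 after a start) held 47 of the 53 members, all but PCDHA3, PCDHA13, PCDHB6, PCDHB11, PCDHGA12 and PCDHGC5. In each subfamily the word of 9 bases found in most promoters was sought on both strands. It was GATGTCGCT in alpha, held by 9 of 13 promoters, GGTGGCGCT in beta, held by 13 of 14, and GCGCCGCTG in gamma, held by 10 of 20. Among all 27305 genes in the table, 0.128%, 0.619% and 1.59% held the alpha, beta and gamma word. All 3 words share the letters CGCT. In the holders listed with positions the word lay 43 to 86 bp before the start in alpha (9 genes), 43 to 84 bp in beta (11 genes) and 44 to 99 bp in gamma (10 genes), and each time it read in this form on the strand of the gene. None of the 4 C-type promoters in the table held any of the 3 words as an exact match. Near matches were not searched, so this does not show that a related element is absent.

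The following lines of 40 bases on the plus strand of GRCh38 set the word holders that had a control peak beside a holder from the same cluster that had none, with the word in capitals. They lie at chr5:140821537-140821576, chr5:140827892-140827931, chr5:140855836-140855875, chr5:140875239-140875278, chr5:141172561-141172600, chr5:141182305-141182344, chr5:141420968-141421007 and chr5:141412927-141412966, in this order.
PCDHA5, control peak: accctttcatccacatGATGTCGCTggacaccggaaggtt
PCDHA6, no peak: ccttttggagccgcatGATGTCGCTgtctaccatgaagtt
PCDHA10, control peak: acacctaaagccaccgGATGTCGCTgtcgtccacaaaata
PCDHA12, no peak: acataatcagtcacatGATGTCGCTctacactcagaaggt
PCDHB7, control peak: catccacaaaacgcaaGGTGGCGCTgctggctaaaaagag
PCDHB16, no peak: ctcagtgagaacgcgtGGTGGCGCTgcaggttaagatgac
PCDHGA11, peak in both lists: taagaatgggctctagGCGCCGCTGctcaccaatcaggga
PCDHGA10, no peak: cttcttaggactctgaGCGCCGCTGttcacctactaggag

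Starts with and without a peak thus carried the same word. PCDHB8 also holds the beta word in its promoter window and had a control peak. The word lay inside a control peak at PCDHB7 alone, and inside an MGO peak at PCDHGA11 alone. At PCDHA5, PCDHA10, PCDHB8 and PCDHGA11 the control peak began downstream of the word.

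Promoters without an exact word are represented by the 250 bases before the RefSeq start of PCDHA11, which had the strongest control peak without an MGO peak, and of the C-type genes PCDHAC1 and PCDHGC3, which had a peak in both lists. They lie at chr5:140868707-140868956, chr5:140926049-140926298 and chr5:141475716-141475965 of GRCh38, plus strand, and are printed in lower case throughout because they hold no exact copy of the words.
PCDHA11: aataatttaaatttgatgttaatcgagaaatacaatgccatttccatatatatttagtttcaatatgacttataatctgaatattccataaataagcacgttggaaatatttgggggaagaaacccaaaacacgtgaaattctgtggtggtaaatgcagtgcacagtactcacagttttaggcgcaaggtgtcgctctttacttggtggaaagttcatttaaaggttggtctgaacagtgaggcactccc
PCDHAC1: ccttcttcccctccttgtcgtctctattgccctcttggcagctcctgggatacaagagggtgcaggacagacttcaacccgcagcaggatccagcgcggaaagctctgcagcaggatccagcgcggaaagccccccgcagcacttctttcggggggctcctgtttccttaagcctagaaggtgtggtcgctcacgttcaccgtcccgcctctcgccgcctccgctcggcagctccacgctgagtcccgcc
PCDHGC3: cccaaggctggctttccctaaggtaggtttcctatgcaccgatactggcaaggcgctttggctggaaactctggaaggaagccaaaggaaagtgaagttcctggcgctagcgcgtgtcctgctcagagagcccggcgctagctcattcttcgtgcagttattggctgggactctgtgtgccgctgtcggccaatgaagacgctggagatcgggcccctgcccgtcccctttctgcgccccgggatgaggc

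The stretch of PCDHA11 holds ggtgtcgct, close to the alpha and beta words, and that of PCDHGC3 holds gtgccgctg, close to the gamma word. The stretch of PCDHA11 has a GC content of 36.0%, against 63.2% for PCDHAC1 and 60.0% for PCDHGC3. The corresponding stretches of PCDHA5, PCDHA10, PCDHB7 and PCDHB8, which also had a control peak only, have a GC content of 32.4%, 35.2%, 39.2% and 40.4%. That of PCDHGA11, which had a peak in both lists, lies between these and the C-type genes at 43.6%.

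Most clustered protocadherin genes had no peak at a start in either library. A peak lay within 1000 bp of a TSS of 9 of the 53 genes in control, or 17.0% (95% Wilson interval 9.2 to 29.2%), and of 4 genes in MGO, or 7.55% (2.97 to 17.9%). These intervals cover counting error only and treat genes as independent. Across all protein-coding genes the shares were 67.3% in control (13491 genes) and 63.9% in MGO (12798 genes). With peaks of −log10 q of at least 2 in both lists, 6 members had a peak in control and 4 in MGO, and the shares over all genes were 63.3% and 57.8%. The share of protocadherin genes with a peak was below that of all genes in both libraries. In a bulk library, fewer cells with an open start and a less open start in each cell cannot be told apart.

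Other families in tandem clusters had higher shares. Of 39 HOX genes, the homeobox clusters that pattern the body axis, 27 (69.2%) had a peak in control and 25 (64.1%) in MGO. Of 249 zinc finger genes of chromosome 19, 66.3% and 63.9% did.

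All 4 protocadherin genes with an MGO peak also had a control peak. The other 5 of the 9 had a control peak only, and no gene had an MGO peak only. Across all protein-coding genes, 4.72% had a peak in control only and 1.26% in MGO only. Of all genes with a control peak, 7.01% had none in MGO, against 5 of 9 protocadherin genes. These genes were too few for a narrow interval, and with peaks of −log10 q of at least 2 in both lists the count was 2 of 6 genes, PCDHA10 and PCDHA11, beside 10.9% of all genes with such a control peak.

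**Figure D1:**
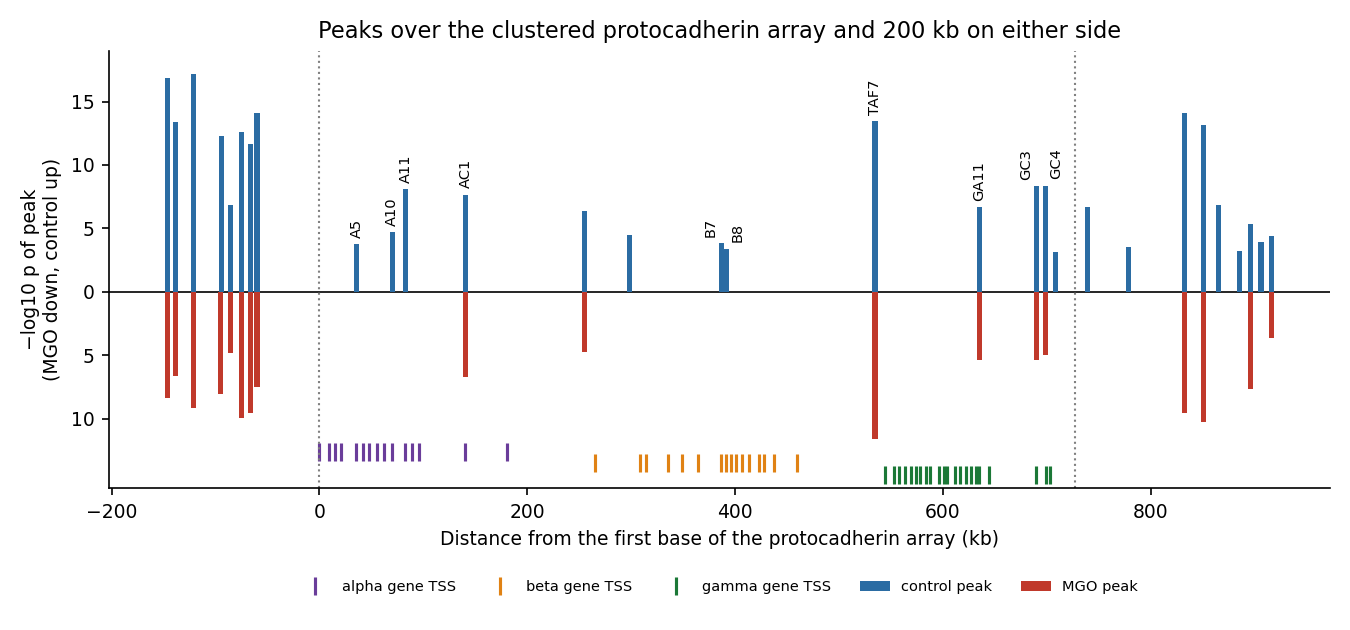
Peaks along the clustered protocadherin array and its flanks, by distance from the first base of the array (kb), with −log10 p of each peak upward for control (blue) and downward for MGO (red), coloured ticks for gene starts and dotted lines at the ends of the array. Control bars stand at 9 of 53 gene starts and MGO bars at 4, and the alpha cluster has 1 MGO bar.

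Of the 3 clusters, alpha had the largest number of genes with a TSS peak in control alone. Counted by peaks over the whole span, alpha and beta each had 3 control peaks without an MGO peak. Of 15 alpha genes, 4 had a peak in control (26.7%) and 1 in MGO (6.67%). PCDHA5 had a control peak at chr5:140821841-140822145 with a fold enrichment of 2.91, a −log10 p of 3.78 and a −log10 q of 1.57. PCDHA10 had one at chr5:140855926-140856475, with 3.29, 4.71 and 2.40 for the same quantities. PCDHA11 had one at chr5:140868855-140869593, with 4.40, 8.09 and 5.54. These 3 genes encode isoforms that are switched on in a random manner in neurons, and none of the 3 had an MGO peak. For PCDHA11 the nearest MGO peak lay 55104 bp away. In the genome, 97.9% of control TSS peaks with a −log10 p of 8 to 10 overlapped an MGO peak, and the peak at PCDHA11 was thus among the few of its strength that did not.

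PCDHAC1, a C-type gene, was the alpha gene with a peak in both lists. Its control peak at chr5:140926210-140927061 had a fold enrichment of 3.75 and a −log10 p of 7.67. The MGO peak at chr5:140926322-140926940 lay inside it, with a fold enrichment of 3.78 and a −log10 p of 6.73. Its fold enrichment was 1.01 times that of control, the only such ratio above 1 in the array, and its width was 0.727 times that of control. The other alpha C-type gene, PCDHAC2, had no peak in either list, and its nearest control peak lay 39409 bp away. The remaining alpha genes without a peak were PCDHA1 to PCDHA4, PCDHA6 to PCDHA9, PCDHA12 and PCDHA13.

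The beta genes, each a single coding exon without a shared constant region, had weak peaks at 2 starts. PCDHB7 had a control peak at chr5:141172487-141173200, with a fold enrichment of 2.94, a −log10 p of 3.85 and a −log10 q of 1.63. PCDHB8 had one at chr5:141177864-141178491, with 2.75, 3.40 and 1.25. Both lay under the −log10 q of 2, and both were without an MGO peak, so that 2 of 16 beta genes (12.5%) had a peak in control and 0 in MGO, for which the upper Wilson bound is 19.4%. The nearest MGO peaks lay 131293 bp from PCDHB7 and 136439 bp from PCDHB8. The other 14, PCDHB1 to PCDHB6 and PCDHB9 to PCDHB16, had no peak.

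Of 22 gamma genes, 3 had a peak in control (13.6%), and the same 3 had one in MGO. PCDHGA11, an A-type gamma gene, had a control peak at chr5:141421040-141421633 with a fold enrichment of 3.67 and a −log10 p of 6.69, and an MGO peak at chr5:141420902-141421441 with 3.48 and 5.34. PCDHGC3, a C-type gene that many cell types outside the nervous system also use, had a control peak at chr5:141475752-141476455 with 4.03 and 8.34, and an MGO peak at chr5:141475784-141476173 with 3.39 and 5.39. PCDHGC4, the neighbouring C-type gene, had a control peak at chr5:141484661-141485348 with 3.71 and 8.37, and an MGO peak at chr5:141484663-141485466 with 3.07 and 5.02. Both values were lower in MGO at each of the 3 genes. No peak of either list lay at the other 19 gamma genes, 11 of the A type, the 7 of the B type and PCDHGC5.

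Sorted by type, 3 of the 5 C-type genes had a peak in each list, and they were the same genes, PCDHAC1, PCDHGC3 and PCDHGC4. Of the 32 other alpha and gamma genes, 4 (12.5%) had a peak in control and 1 (3.12%) in MGO. All 5 genes with a peak in control alone were alpha or beta genes outside the C type. This contrast did not hold at a −log10 q of at least 5 in both lists, where the same 3 C-type genes and PCDHA11 had a control peak and no member had an MGO peak. At that threshold 43.0% of all genes had a peak in control and 31.5% in MGO, and 30.7% of those with a control peak had none in MGO.

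**Figure D2:**
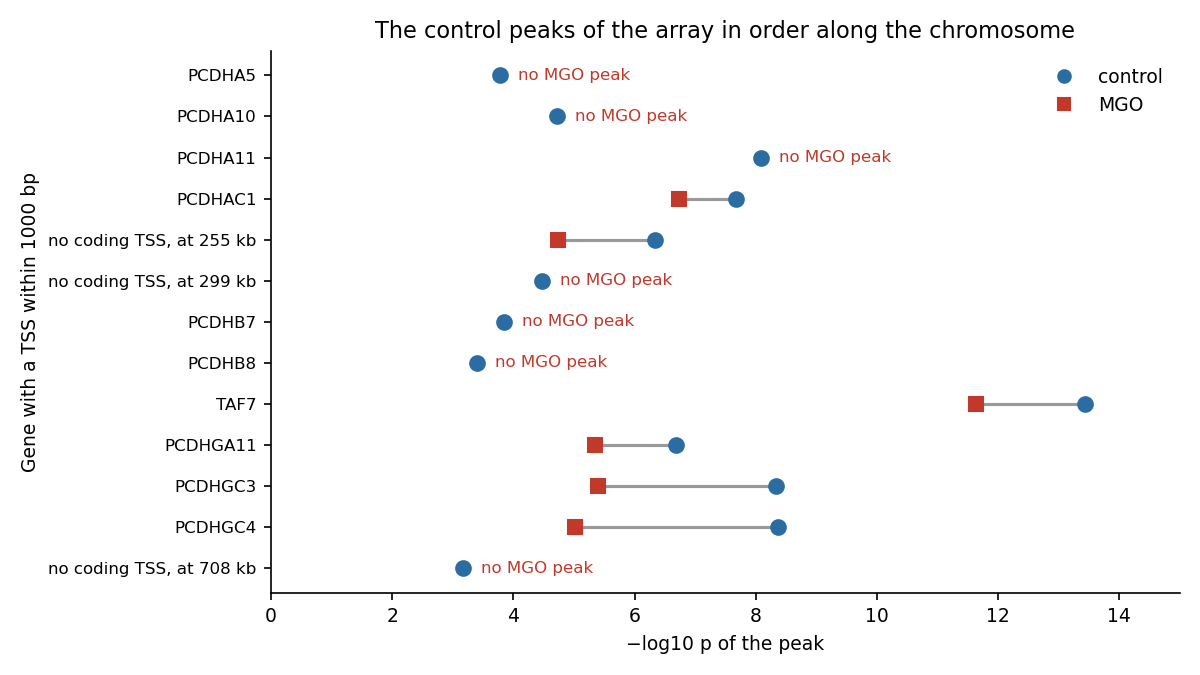
The −log10 p of the 13 control peaks of the array (blue circles) and of the MGO peaks that overlap them (red squares), named by the gene with a TSS within 1000 bp or by distance from the array start in kb. In the 6 pairs the MGO value is the lower, and 7 control peaks, PCDHA11 at 8.09 among them, have no MGO peak.

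Beyond the gene starts, 4 more control peaks lay in the array. TAF7, an intronless gene for a subunit of the general transcription factor TFIID between the beta and gamma clusters, had the strongest peak of the array in both lists. Its control peak at chr5:141320269-141321248 had a −log10 p of 13.4 and its MGO peak at chr5:141320344-141321305 one of 11.6. The other genes enclosed in the array, the mitochondrial ornithine carrier gene SLC25A2 and ENSG00000279983, had no peak.

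A peak between the alpha and beta clusters was present in both lists and lay 9422 bp from PCDHB1. In control it covered chr5:141040945-141041952 with a −log10 p of 6.34, and a start of the lncRNA gene ENSG00000288892 lay within 1000 bp. In MGO it covered chr5:141040927-141041351 with 4.73, so that its width was 0.422 times that of control, the smallest such ratio in the array. The part of the control peak that the MGO peak did not cover holds a match to CCNNNAGNNGGC, the core of the CTCF motif, whose reverse complement is in capitals in this line of 50 bases at chr5:141041353-141041402 of GRCh38, plus strand.
Peak between alpha and beta: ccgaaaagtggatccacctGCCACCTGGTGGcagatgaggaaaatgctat

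The match begins 21 bp beyond the end of the MGO peak and 427 bp after the start of the control peak. A second intergenic control peak, at chr5:141084517-141084814 and 9792 bp from PCDHB2, had a −log10 p of 4.46 and no MGO peak. The last control peak, at chr5:141494307-141494813, covered a constant coding exon shared by all 22 gamma genes, 5140 bp from PCDHGC5. It was the weakest of the array, with a −log10 p of 3.16 and a −log10 q of 1.07, and had no MGO peak.

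Counted by peaks, the array of 726.8 kb held 13 control and 6 MGO peaks, a ratio of 0.462. The peaks covered 8567 bp in control (1.18% of the array) and 3740 bp in MGO (0.515%), a ratio of 0.437, and the median fold enrichment was 3.67 over the control and 3.43 over the MGO peaks. On chromosomes 1 to 22, X and Y the ratio of peak numbers was 0.63 and that of covered lengths 0.641. Control peaks were denser in the array than in the genome (17.9 against 11.5 per Mb), and so were coding starts (77.0 against 6.49 per Mb). With peaks of −log10 q of at least 2 the array held 9 control and 6 MGO peaks, and the ratio of covered lengths was 0.583, against 0.67 on these chromosomes. By cluster, the alpha span had 4 control and 1 MGO peaks, the beta span 3 and 0, and the gamma span 4 and 3.

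Of the 13 control peaks of the array, 6 overlapped an MGO peak, or 46.2% (23.2 to 70.9%), and of the 9 at protocadherin starts 4 did, or 44.4% (18.9 to 73.3%). With peaks of −log10 q of at least 2 in both lists, 6 of 9 control peaks of the array did, or 66.7%, beside 59.1% of all control peaks and 85.6% of those at a protein-coding TSS. At a −log10 q of at least 5, 1 of 5 did in the array and 7 of 9 in the flanks, beside 59.2% of all control peaks. In the whole list as deposited 49.9% of control peaks overlapped an MGO peak, 87.7% of those within 1000 bp of a protein-coding TSS and 28.0% of the others. Of all MGO peaks 78.9% overlapped a control peak, and in the array 6 of 6 did. In the lists as deposited, the interval of the protocadherin TSS peaks lies below the share for all TSS peaks and includes that for all peaks. It treats neighbouring peaks as independent and is no test between the conditions. Of the 9 peaks behind it, 3 (PCDHA5, PCDHB7 and PCDHB8) had a −log10 q under 2, and no interval was computed without them.

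Peak strength moved with this result. Among all control TSS peaks, the share that overlapped an MGO peak was 34.3% at a −log10 p under 4, 71.0% at 4 to 6, 93.4% at 6 to 8 and 97.9% at 8 to 10. Of the protocadherin TSS peaks, 0 of 3, 0 of 1, 2 of 2 and 2 of 3 did in these ranges. PCDHA5, PCDHB7 and PCDHB8 were in the weakest range, PCDHA10 in the next and PCDHA11 in the strongest of the 4. The median −log10 p was 6.34 for control peaks of the array, 11.7 for those of the flanks and 5.15 for all control peaks. The part of peak strength in the counts was not tested.

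**Figure D3:**
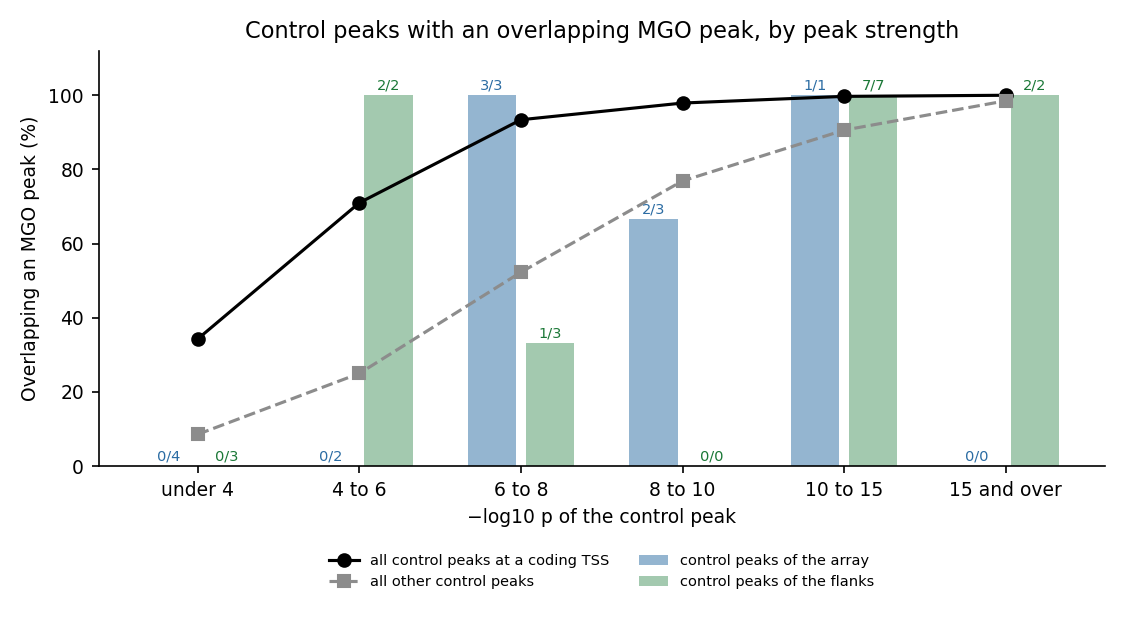
Share of control peaks that overlap an MGO peak (%) by −log10 p of the control peak, for all peaks at a protein-coding TSS (black line), all other peaks (grey dashed line), the array (blue bars) and the flanks (green bars), with the counts over the bars. At 8 to 10, 97.9% of all TSS peaks and 2 of 3 peaks of the array overlap an MGO peak, and PCDHA11 is the exception.

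For the 6 pairs of peaks in the array, the ratio of MGO to control fold enrichment had a median of 0.881 and ran from 0.827 at PCDHGC4 to 1.01 at PCDHAC1. In between lay PCDHGC3 at 0.841, the intergenic peak at 0.859, TAF7 at 0.904 and PCDHGA11 at 0.947. The ratio was below 1 in 5 of 6 pairs. Over all 18009 pairs in the genome it had a median of 0.925, with 72.2% below 1, and over the 12 pairs of the flanks a median of 0.889. The ratio of widths had a median of 0.818 in the array, 0.832 in the flanks and 0.882 in the genome. PCDHGC4 was the pair of the array whose MGO peak was wider, by a ratio of 1.17. All 6 fold ratios, those of TAF7 and the intergenic peak included, lay within the range of 0.458 to 2.14 over all pairs. That range is so wide that lying within it says little about the members.

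The flanks served as neighbours that do not encode protocadherins. In the 200 kb before the alpha cluster, 8 of 8 control peaks overlapped an MGO peak. In the 200 kb after the gamma cluster 4 of 9 did, close to the share in the array, and 12 of 17 in both flanks together (70.6%, 46.9 to 86.7%). The covered length in MGO was 0.85 times that of control before the array and 0.566 times after it. Of the 14 flanking genes, 12 had a peak in control and 11 in MGO. FCHSD1, which encodes a regulator of actin and membrane shape, had one in control alone (chr5:141651182-141651835, −log10 p 6.81), and CD14, a co-receptor for lipopolysaccharide, and DND1, a germ cell RNA-binding protein gene, had none. The strongest flank peaks in control lay at WDR55 (−log10 p 17.2), TMCO6 (16.9), the vault RNA gene VTRNA1-3 (14.1), DIAPH1 (14.1) and the pair IK and NDUFA2 (13.4). In MGO they lay at the pair HDAC3 and RELL2 (10.3), VTRNA1-1 (9.94), DIAPH1 (9.57), VTRNA1-2 (9.57) and WDR55 (9.18). Every peak of the array except that of TAF7 was weaker in −log10 p than the weakest of these 5 in the same list.

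The starts of the members were poorer in GC than those of most genes. Within 1000 bp of the most upstream start the GC content had a median of 42.8% over the 53 members (31.2 to 57.2%), against 55.0% over all protein-coding genes and 54.8% over the flanking genes. The 4 members with a peak in both lists ranged from 44.6% (PCDHGA11) to 56.6% (PCDHAC1), and the 5 with a control peak only from 31.2% (PCDHA11) to 43.0% (PCDHB8), so that these groups did not overlap in this window. Under the control peaks themselves they did, with 54.5% (PCDHGA11) to 67.4% (PCDHAC1) in the first group and 45.1% (PCDHB7) to 63.6% (PCDHA5) in the second. The most upstream start of PCDHA11, on which its window is centred, lies before its peak. The 44 members without a peak ranged from 38.2 to 57.2% and overlapped both groups, and PCDHAC2 was the highest of all and had no peak.

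Low GC content goes with fewer peaks in all genes, and the members were set beside genes of like GC. Of the 37 members at 40 to 45% GC, 4 had a peak in control and 1 in MGO, whereas 36.8% and 32.0% of all 1607 genes in that range did. Of 6 members under 40%, 2 had a peak in control and 0 in MGO, against 26.2% and 21.0% of genes, and of 5 members at 45 to 50%, 0 had a peak in either list, against 59.2% and 55.6%. Of 3 members at 50 to 55%, 2 had a peak in each list, against 71.5% of genes in control and 67.9% in MGO, and of 2 at 55 to 60%, 1 did, against 76.1% and 73.3%. Between 40 and 50% GC the members thus had a smaller share with a peak than all genes of like GC. The observed over expected ratio of CpG, a measure of CpG islands, had a median of 0.594 in the members and 0.613 in all genes, and of 0.284 in all genes without a control peak. The members without a peak had a median of 0.582, so that most were rich in CpG for genes without a peak.

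**Figure D4:**
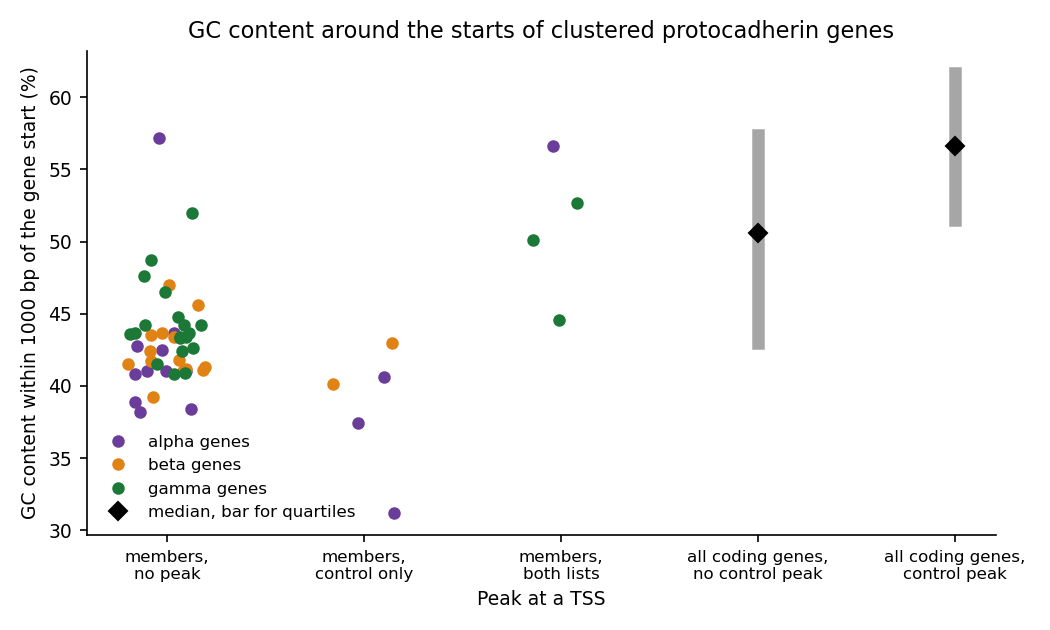
GC content (%) within 1000 bp of the most upstream start of each protocadherin gene, 1 point per gene coloured by subfamily and spread sideways for visibility, beside the median (diamond) and quartiles (bar) of all protein-coding genes with and without a control peak. The 4 members with a peak in both lists lie at 44.6% and above, and the 5 with a control peak only at 43.0% and below.

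The clusters hold near-identical copies, and the authors removed reads that map to more than 1 place, so a peak can be missed or weakened where the sequence is not unique. The share of 31-mers found once in the genome was therefore computed under each control peak of the array. It was 10.9% at PCDHB8, 48.4% at PCDHA5, 68.1% at PCDHA10 and 75.6% at PCDHA11, and 100% at PCDHB7, the second intergenic peak and the constant exon. All 7 of these peaks had no MGO peak. The 6 with an MGO peak lay at 99.1% or above. Paired reads are longer than 31 bases, so reads could be placed at more positions than these shares give. Around the starts the members had a median of 97.1% unique 31-mers (56.0 to 100%), those with a control peak 99.2% and those without 97.0%. The part of mappability in the peak counts was not tested.

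**Figure D5:**
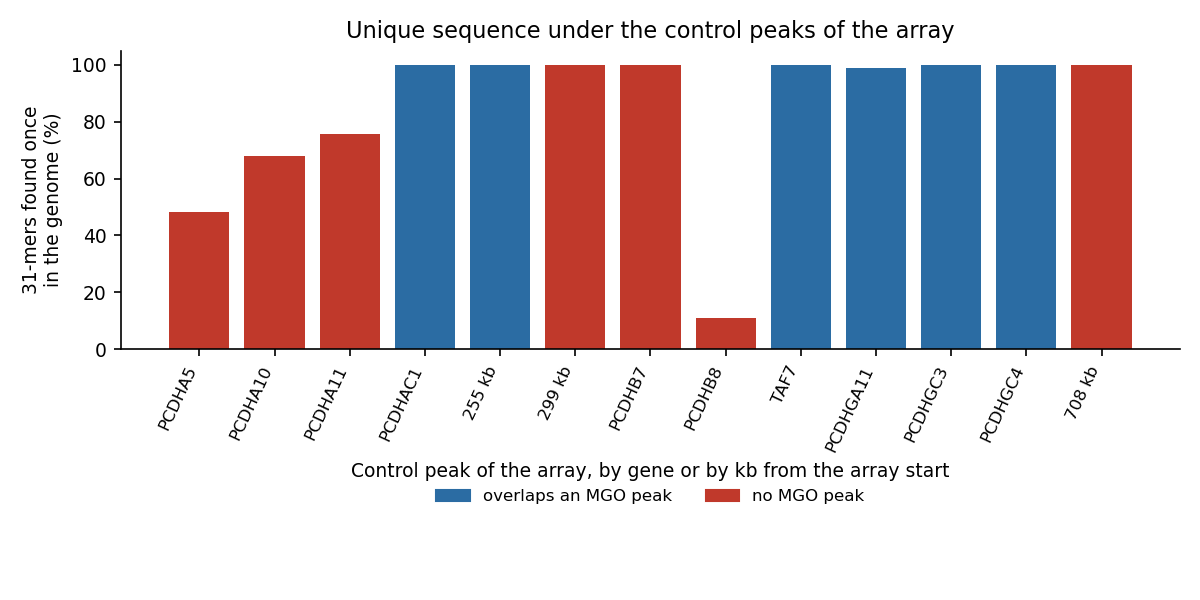
Share of 31-mers that occur once in the genome (%) under each of the 13 control peaks of the array, in order along the chromosome, in blue where an MGO peak overlaps and in red where none does. The 4 bars under 80% are PCDHA5, PCDHA10, PCDHA11 and PCDHB8, all without an MGO peak, and 3 red bars stand at 100%.

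The peaks at protocadherin starts reached into coding sequence, and some, as at PCDHGC4, were centred close to a start. The centre of the control peak was downstream of the nearest TSS at 9 of 9 genes, by 7.5 bp at PCDHGC4, 99.5 bp at PCDHGC3, 108.5 bp at PCDHGA11 and up to 387.5 bp at PCDHB8, with a median of 199.5 bp. Over all control TSS peaks the median was 12 bp, and 55.9% had their centre downstream. In MGO the centre lay 262 bp downstream at PCDHAC1 and 1.5 bp at PCDHGC4, 1.5 bp upstream at PCDHGC3 and 56.5 bp upstream at PCDHGA11. These distances are to the nearest annotated start of the gene, and PCDHGC3 has 8 starts, PCDHGC4 4 and PCDHGA11 3. At PCDHGC3 and PCDHGC4 the nearest start differed between the lists. The distances of the 2 lists therefore do not measure a shift of the peak, and upstream does not mean before the first start. All 9 control peaks and all 4 MGO peaks at members overlapped coding sequence.

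Matches to the CTCF core CCNNNAGNNGGC on either strand were rare in the promoter windows of the members, at 1 of 47 (PCDHB9) against 12.7% of all 27305 genes. Among control peaks, 3 of 13 in the array held a match (PCDHAC1, the intergenic peak printed above and PCDHGA11), 6 of 17 in the flanks and 27.7% in the genome. Among MGO peaks it was 2 of 6 (PCDHAC1 and PCDHGA11), 1 of 12 and 29.5%. A match is a run of letters and not a measured binding site, and sequences close to the core were not counted. Around their starts the members had a lower median GC content than all genes (42.8% against 55.0%). No promoters of like GC were searched for this pattern, which is rich in C and G. At PCDHB9 the match overlaps the beta word GGTGGCGCT, and the other promoters that hold a word had no match.

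Most genes of 3 related lists had a peak, beside 67.3% of all protein-coding genes in control and 63.9% in MGO. Of 11 protocadherin genes outside the clusters, which encode proteins without a shared constant region, 9 had a peak in control and 10 in MGO. PCDH8 had a peak in MGO alone and PCDH11X in neither. Of 16 genes for regulators of the clusters, among them CTCF, the cohesin subunits RAD21 and SMC3 and the repressor SMCHD1, 16 had a peak in control and 15 in MGO, with the DNA methyltransferase gene DNMT3B in control alone. Of 9 genes for kinases and actin regulators that bind the shared cytoplasmic parts, 9 and 8 did, with CYFIP1, a subunit of the WAVE complex, in control alone. Among the clustered genes the counts were 9 and 4 of 53.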

How the data were processed

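ATAC-seq libraries of 293T cells, 1 control and 1 MGO-treated, were sequenced, aligned and called by the authors. Per the submitters' processing notes and the study's methods, reads were prepared with bcl2fastq 2.19, aligned to GRCh38.p12 with BWA 0.7.15, cleared of mitochondrial and multi-mapping reads with Picard (version 2.16.0 in the notes, a later one in the methods), reduced at random to equal depth and passed to MACS2, which called broad peaks per sample with blacklisted regions left out. The methods use peaks with a −log10 q-value of at least 2, but the deposited lists also hold weaker ones. The version of MACS2 and its other settings are not given in the sources used here. The authors deposited for each peak a fold enrichment over background, which is a ratio, a −log10 p-value, a −log10 q-value and a score made from the q-value, which was not used. Read counts were not analysed here, so depth and its error could not be computed.

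Peaks that shared 1 bp counted as overlapping, and peaks were assigned to protein-coding genes within 1000 bp of any transcript start of GENCODE 44. Shares have 95% Wilson intervals, which cover counting error only. GC content and unique 31-mers came from the GRCh38 sequence, promoters from the RefSeq table, and words of 9 bases were those in most promoters of a subfamily. Every member with a peak and every peak of the array was named, with the 5 strongest peaks of each list in the flanks and listed genes found in 1 list or neither. The members and lists were chosen with earlier results of these data known. One marker gene is not reported here. Alternatives were −log10 q of at least 2 or 5, equal peak numbers, windows of 500 and 2000 bp, 1 start per gene and overlap of 50%. Overlaps were tested on simulated data and checked against bedtools 2.31.1. Computations used Python 3.11.15, numpy 2.4.6, pandas 2.3.3, scipy 1.17.1, numba 0.67.0 and matplotlib 3.10.9.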

Additional observations from a re-analysis of the deposited data

How the results depend on the processing

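Of 41 alternative values, 33 stayed within 1.5 times the value reported or, for shares, within its interval, and 8 did not. Windows of 500 and 2000 bp and 1 start per gene, run for the gene counts, and overlap of 50%, run for the shares of overlapping peaks, moved none of these out of bounds. With peaks of −log10 q of at least 2, or with equal numbers of peaks in both lists, 2 protocadherin genes in place of 5 had a control peak only, since PCDHA5, PCDHB7 and PCDHB8 were left out of the control list and no member was left out of the MGO list. With peaks of −log10 q of at least 5, 4 genes had a control peak (PCDHA11, PCDHAC1, PCDHGC3 and PCDHGC4) and 0 an MGO peak, the array held 5 control peaks and 1 MGO peak, 20% of its control peaks overlapped an MGO peak, against 77.8% in the flanks and 59.2% of all control peaks, and the ratio of covered lengths was 0.2427. In all 3 of these settings fewer peaks enter by construction. In every setting run for gene counts no protocadherin gene had an MGO peak only. No paired analysis was possible because each condition had a single library here. The part of depth in these counts was not tested.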

Other observations

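Vault RNA genes, short genes read by RNA polymerase III whose RNAs are part of the vault particle, lie between the alpha protocadherin cluster and ZMAT2. VTRNA1-1, VTRNA1-2 and VTRNA1-3 each had a peak in both lists, with a −log10 p of 12.6, 11.7 and 14.1 in control and of 9.94, 9.57 and 7.52 in MGO. The peak at VTRNA1-2 was the widest of the array and its flanks, at 2180 bp in control and 1803 bp in MGO, and 68.1% of its 31-mers in control were unique. At ARAP3, on the other side of the array, the MGO peak had 1.19 times the fold enrichment of the control peak and a −log10 p of 7.63 against 5.32. An internal start of DIAPH1, which encodes a formin that assembles actin, had a control peak at chr5:141524778-141525250 with a −log10 p of 6.68 and no MGO peak.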
